A study of Homo sapiens with 12 samples.

Results

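MYC and PVT1 are neighbouring genes on the plus strand of chromosome 8. MYC was taken at 127735434 to 127742951 and PVT1 at 127794533 to 128101253 of the hg38 build, within the region from 127700000 to 128300000. The genes and the region were set by coordinates alone, without measured values. Of the 15441419 bins of 200 bp in the deposited count table, the region holds 3000, of which 38 fall in MYC and 1533 in PVT1. Of the 21874 transcription units in the deposited annotation, 11 overlap the region. The MYC unit runs from 127734280 to 127746937 and has no class in the annotation, the PVT1 unit runs from 127794541 to 128115483 and is classed as lincRNA, and the other 9 lie on the minus strand.

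The study compared ways of sequencing newly made RNA in K562 cells, a human chronic myeloid leukaemia line with erythroid features, used at passages 3 to 5. All 8 RNA libraries came from cells given 500 µM 4-thiouridine (4sU), a uridine analogue built into RNA during transcription, for 5 min. In the TT-Seq group (n = 2) the RNA was sheared by sonication and the labelled fragments were purified, and in the 4sU-Seq group (n = 2) the labelled RNA was purified without shearing. The Total RNA-Frag-Seq group (n = 2) was sheared without purification, and the Total RNA-Seq group (n = 2) was neither sheared nor purified. Chromatin immunoprecipitation (ChIP) libraries, from cells crosslinked for 7.5 min, used an antibody against RNA polymerase II phosphorylated at serine 2 of its tail (S2P, n = 2) or the polymerase II antibody N-20 (N20, n = 2). The design calls the RNA libraries biological duplicates, and the labels say nothing of this for ChIP, where p-values measure the spread between libraries that may be technical replicates. No unlabelled RNA and no ChIP input was analysed here.

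MYC encodes a transcription factor that binds DNA as a dimer with MAX and drives growth, ribosome production and metabolism. Its mRNA and protein both turn over fast, so its level follows transcription closely. PVT1, downstream of MYC, gives a long non-coding RNA and hosts several microRNA hairpins, and it is often gained together with MYC in tumours. A short 4sU pulse marks RNA made in the last minutes, unspliced and unstable RNA included. Shearing before purification drops the unlabelled 5′ part of RNA that was already under way when the pulse began.

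Total binned counts lay between 25909021 and 71317148 for the RNA libraries and between 12598494 and 73660126 for the ChIP libraries. Every ChIP bin count was an even number in all 4 libraries. A level here is a count divided by the library's total binned count (CPM) and by length in kb. Over RefSeq gene spans, 8 of the 12 K562 markers, among them the erythroid transcription factors GATA1 and KLF1 and the fetal globins HBG1 and HBG2 (near-identical copies whose counts may be split), had mean levels between 1.83 and 46.7 in the 4 RNA groups. The other 4 were lower, with HBA1 between 0.576 and 2.47, ALAS2 between 0.868 and 1.28, EPOR between 0.547 and 0.977 and HBA2, a near-identical copy of HBA1, between 0.0198 and 0.0744. Of 16 markers of other cell types, 10 stayed at or below 0.577 in all 4 groups. The other 6 were highest for Total RNA-Seq, KRT18 at 22.8, KRT19 at 17.5, LYZ at 2.25, EPCAM at 1.68, DES at 1.64 and CD3D at 1.30. Log2 differences come from edgeR's quasi-likelihood test over all features or windows, with Benjamini-Hochberg adjustment over all of them, and a feature was called at an adjusted p under 0.05. Trimmed-mean (TMM) scaling was used in these fits. Without it, the median over all features moved to 0.44 from 0.09 for TT-Seq over Total RNA-Frag-Seq, to 0.33 from 0.19 for 4sU-Seq over Total RNA-Seq, and to -0.70 from -0.07 for S2P against N20 ChIP. The share of calls that were higher moved with it, from 53.3% to 69.7%, from 58.8% to 69.9% and from 54.5% to 16.4% in these comparisons, and from 74.9% to 33.4% for shearing of unpurified RNA. With RLE scaling it was 47.7% for 4sU-Seq over Total RNA-Seq and 45.1% for shearing of unpurified RNA. For the difference between both purification effects it was 25.4%, and 42.6% with RLE scaling, 51.9% without scaling and 38.5% with DESeq2. DESeq2 gave 42.1% for 4sU-Seq over Total RNA-Seq and 47.3% for shearing of unpurified RNA.

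MYC was among the units of highest level per kb of genomic length in every RNA group. Ranked by level per kb among 21827 units, the MYC unit stood at place 13 in TT-Seq, 23 in 4sU-Seq, 41 for Total RNA-Frag-Seq and 38 for Total RNA-Seq. The MYC span had levels of 56.5 and 54.8 in TT-Seq, 52.1 and 62.9 in 4sU-Seq, 45.7 and 45.0 for Total RNA-Frag-Seq, and 57.6 and 61.2 for Total RNA-Seq. Total RNA-Seq had the highest mean, followed by 4sU-Seq and then TT-Seq, and the 4sU-Seq libraries overlapped both neighbours. Total RNA-Frag-Seq had the lowest mean and lay below all other libraries.

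PVT1 was far lower per kb than MYC, and its order was different. The longer PVT1 span held more counts than MYC in TT-Seq, 55555 and 60060 beside 29585 and 29689. For Total RNA-Seq PVT1 held fewer, 13032 and 11200 beside 13298 and 12058. Its levels were 2.63 and 2.75 in TT-Seq, 2.55 and 2.29 in 4sU-Seq, 2.02 and 2.11 for Total RNA-Frag-Seq, and 1.40 and 1.41 for Total RNA-Seq. The libraries of the groups did not overlap, and the order just given runs from high to low. The PVT1 unit ranked 1264 in TT-Seq and 4277 for Total RNA-Seq. MYC exceeded PVT1 per kb 20.7 ± 1.09 times in TT-Seq, 24.0 ± 5.01 times in 4sU-Seq, 22.0 ± 0.944 times for Total RNA-Frag-Seq and 42.3 ± 1.60 times for Total RNA-Seq (SD, n = 2 each).

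**Figure D1:**
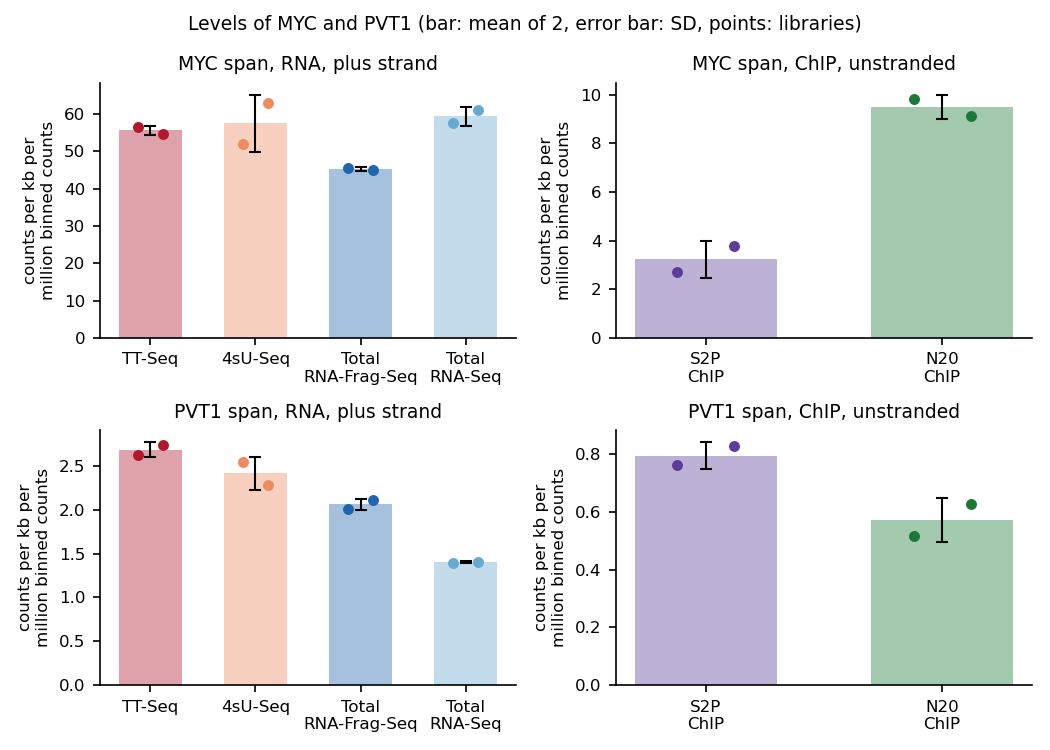
Levels of the MYC and PVT1 spans in CPM per kb, by group, with RNA on the plus strand at the left and unstranded ChIP at the right. Bars are means of 2 libraries, error bars SD and points libraries. PVT1 was lowest for Total RNA-Seq at 1.40 and 1.41, while MYC was lowest for Total RNA-Frag-Seq at 45.7 and 45.0.

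Purification of labelled RNA raised PVT1 more in unsheared than in sheared RNA, while whole-span MYC moved little in either. TT-Seq over Total RNA-Frag-Seq gave a log2 difference of -0.08 ± 0.07 for MYC (SE, edgeR adjusted p = 0.270) and 0.01 ± 0.06 for PVT1 (adjusted p = 0.906), so neither was called, where 80.9% of all 19321 features were. Without scaling both were called higher in TT-Seq, MYC by 0.26 (edgeR adjusted p = 0.0041) and PVT1 by 0.35 (edgeR adjusted p = 2.1e-05), against that fit's median of 0.44. 4sU-Seq over Total RNA-Seq gave 0.65 ± 0.06 for PVT1 (edgeR adjusted p = 1.84e-07) and -0.19 ± 0.07 for MYC (edgeR adjusted p = 0.0216), with 68.4% of features called. The MYC call was lost without scaling (-0.04, edgeR adjusted p = 0.63), without 4sU-Seq replicate 1 (-0.08) and without Total RNA-Seq replicate 2 (-0.13). The test of the difference between both purification effects gave -0.64 ± 0.08 for PVT1 (edgeR adjusted p = 1.78e-05) and 0.11 ± 0.09 for MYC (edgeR adjusted p = 0.424). In that test 34.6% of features were called, 25.8% lower and 8.78% higher.

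Shearing of unpurified RNA moved the genes in opposite directions. In Total RNA-Frag-Seq over Total RNA-Seq, PVT1 was 1.61 times higher (log2 0.69 ± 0.06, edgeR adjusted p = 2.03e-06), above 96.3% of features, and MYC was lower (log2 -0.26 ± 0.07, edgeR adjusted p = 0.0103). Only 22.1% of features were called in this comparison, 16.6% higher and 5.55% lower. The MYC call was lost without Total RNA-Seq replicate 2 (-0.20). Shearing of labelled RNA, TT-Seq against 4sU-Seq, gave -0.15 ± 0.07 for MYC (edgeR adjusted p = 0.0664) and 0.04 ± 0.06 for PVT1 (adjusted p = 0.559), neither called, with 48.4% of features called. Without 4sU-Seq replicate 1 both passed, MYC at -0.27 and PVT1 at 0.14, and without 4sU-Seq replicate 2 PVT1 stood at -0.05 and was not called.

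Within MYC the purified libraries held far more signal between the peaks of Total RNA-Seq than the unpurified ones did. In Total RNA-Seq, bins with at least 200 counts in both libraries formed 3 blocks, at 127736201 to 127736600, 127738201 to 127739000 and 127740401 to 127741400. MYC has 3 exons, but no exon annotation was used. Since Total RNA-Seq counts chose the blocks, comparisons of 4sU-Seq with that group by block are given as a description, while TT-Seq and Total RNA-Frag-Seq took no part in the choice. The stretches between blocks reached 27.1% and 34.2% of the block level with TT-Seq, and 17.2% and 19.5% with 4sU-Seq. They reached 3.56% and 3.76% for Total RNA-Frag-Seq and 3.82% and 3.50% for Total RNA-Seq. Neither purified group overlapped its unpurified counterpart, and TT-Seq lay above 4sU-Seq.

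**Figure D2:**
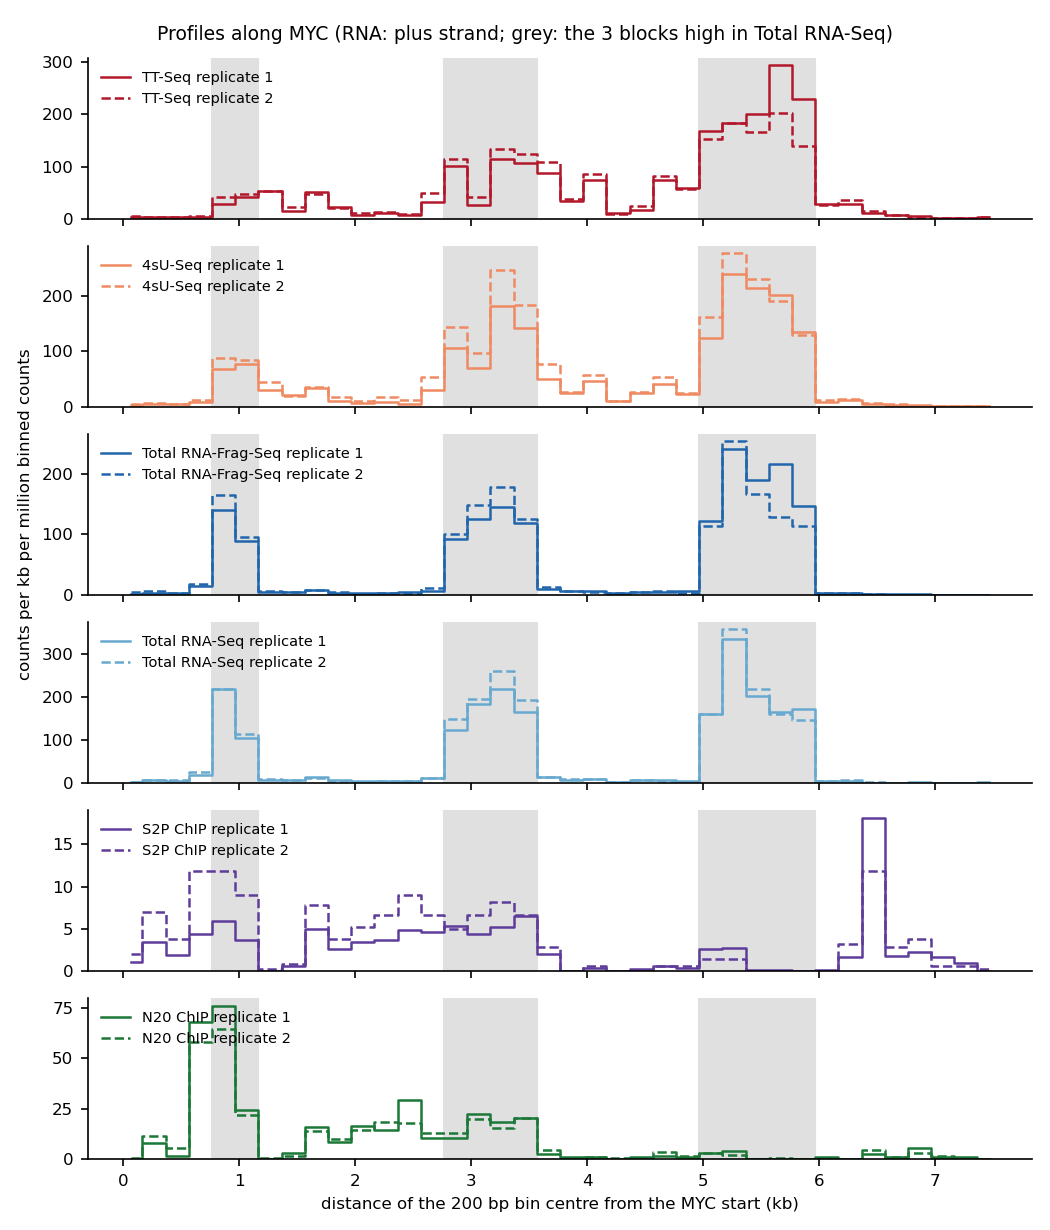
Levels along MYC in CPM per kb, by 200 bp bin and distance from the gene start in kb, for 4 RNA groups on the plus strand and 2 ChIP groups. Lines are replicates and grey areas are the 3 blocks. Signal between the blocks is seen in TT-Seq and 4sU-Seq, and N20 ChIP peaks near the start.

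Tested bin by bin, 14 of the 15 bins between blocks rose in TT-Seq over Total RNA-Frag-Seq and none fell, with a median log2 difference of 2.22, where 23.7% of all 1519706 bins tested rose. In 4sU-Seq over Total RNA-Seq, where the choice of blocks used one of the groups, the count was also 14 of 15, with a median of 1.58 and 9.79% of all bins higher. Of the 11 block bins, 5 fell in TT-Seq over Total RNA-Frag-Seq and none rose, where 24.7% of all bins fell. The lowest was the first bin of block 1, which held 380 and 581 counts in TT-Seq and 1208 and 1103 for Total RNA-Frag-Seq (log2 -2.41 ± 0.23). Block 1 took 3.25% and 4.20% of MYC counts in TT-Seq, 7.34% and 7.20% in 4sU-Seq, 13.2% and 15.3% for Total RNA-Frag-Seq, and 14.7% and 14.2% for Total RNA-Seq. Total RNA-Frag-Seq over Total RNA-Seq gave no called bin in the MYC span, where 0.485% of all bins were called. The block bins had log2 differences between -0.74 and -0.08, with a median of -0.64, and bins outside the blocks had a median of -0.61.

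**Figure D3:**
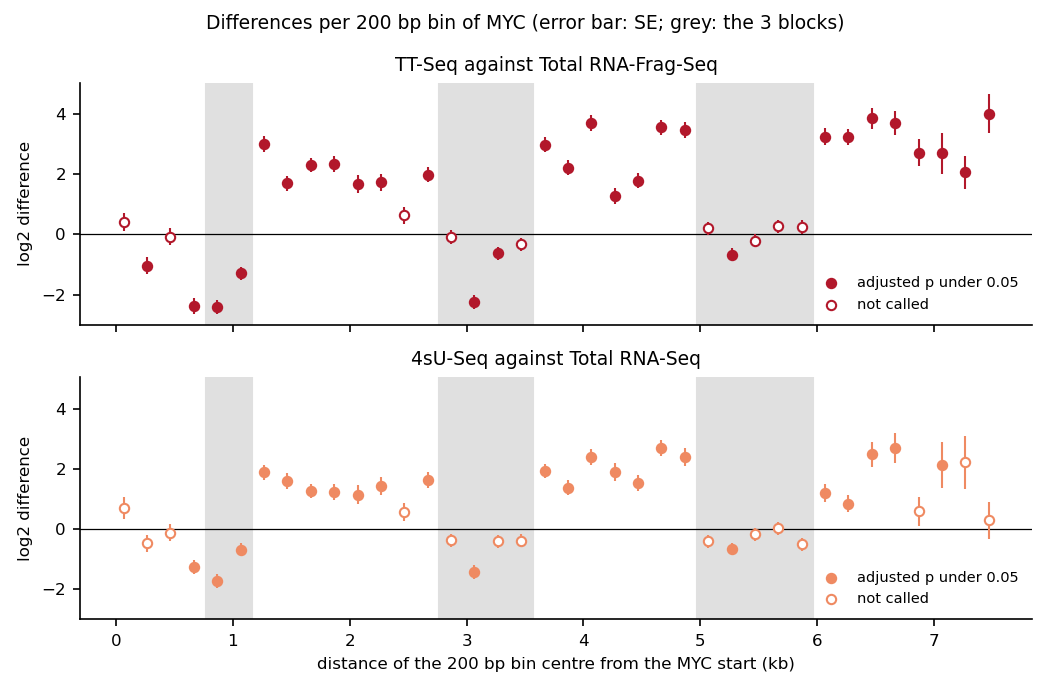
Log2 differences with SE for each 200 bp bin of MYC by distance from its start in kb, for TT-Seq over Total RNA-Frag-Seq above and 4sU-Seq over Total RNA-Seq below. Filled points had an adjusted p under 0.05. Of 15 bins between the grey blocks, 14 were called higher in each comparison.

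The purified libraries also held more counts in the last part of the gene and past both its ends. The MYC span after the last block, from 127741401 to 127743000, held 1175 and 1325 counts in TT-Seq, 371 and 404 in 4sU-Seq, 63 and 53 for Total RNA-Frag-Seq, and 83 and 66 for Total RNA-Seq. That was 3.97% and 4.46% of MYC counts in TT-Seq against 0.421% and 0.465% for Total RNA-Frag-Seq. Past the span, 127743001 to 127747000 held 44 and 46 plus-strand counts in TT-Seq, 14 and 22 in 4sU-Seq, 3 and 1 for Total RNA-Frag-Seq, and 2 and 5 for Total RNA-Seq. Upstream, the 1.2 kb from the start of the MYC unit to the gene start held 177 and 192 plus-strand counts in TT-Seq, 79 and 89 in 4sU-Seq, 5 and 4 for Total RNA-Frag-Seq, and 7 and 2 for Total RNA-Seq. The purified groups stood above the unpurified ones in all 3 stretches, with no overlap.

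Along MYC, counts leaned to the 3′ side in TT-Seq. Cut at its midpoint, the span gave a 5′ part that took 33.5% and 40.8% of counts in TT-Seq, 43.5% and 48.6% in 4sU-Seq, 45.1% and 52.5% for Total RNA-Frag-Seq, and 50.6% and 53.1% for Total RNA-Seq. The log2 ratio of the 5′ over the 3′ part, TT-Seq minus Total RNA-Frag-Seq, was -0.70 ± 0.21 (limma adjusted p = 0.0240), where 71.7% of 11410 features were called, 50% higher and 21.7% lower, and the median was 0.32. The call was lost without TT-Seq replicate 1 (-0.47) and without Total RNA-Frag-Seq replicate 2 (-0.48). Over the longer deposited MYC unit, whose midpoint lies further 3′, the difference was 0.05 ± 0.22 (limma adjusted p = 0.838). Block 3, the 3′ block, took 50.1% and 40.5% of MYC counts in TT-Seq, and 52.7% and 45.4% for Total RNA-Frag-Seq, so the replicates of both sheared groups differed here.

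PVT1 gave plus-strand counts over its whole length. In 30 windows of 10 kb inside the gene, mean levels ran between 1.52 and 4.84 in TT-Seq, between 1.29 and 4.01 in 4sU-Seq, between 0.610 and 3.45 for Total RNA-Frag-Seq, and between 0.360 and 2.61 for Total RNA-Seq. The ratio of highest over lowest window was 3.18 in TT-Seq and 7.25 for Total RNA-Seq. In Total RNA-Seq the level declined to 0.360 at 127880001 to 127890000 and stood at 2.61 in the next window, its highest. It declined again to 0.645 at 127980001 to 127990000 and stood at 2.60 in the next. TT-Seq gave 2.93 and then 4.84 at the first of these steps, and 1.90 and then 2.62 at the second.

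**Figure D4:**
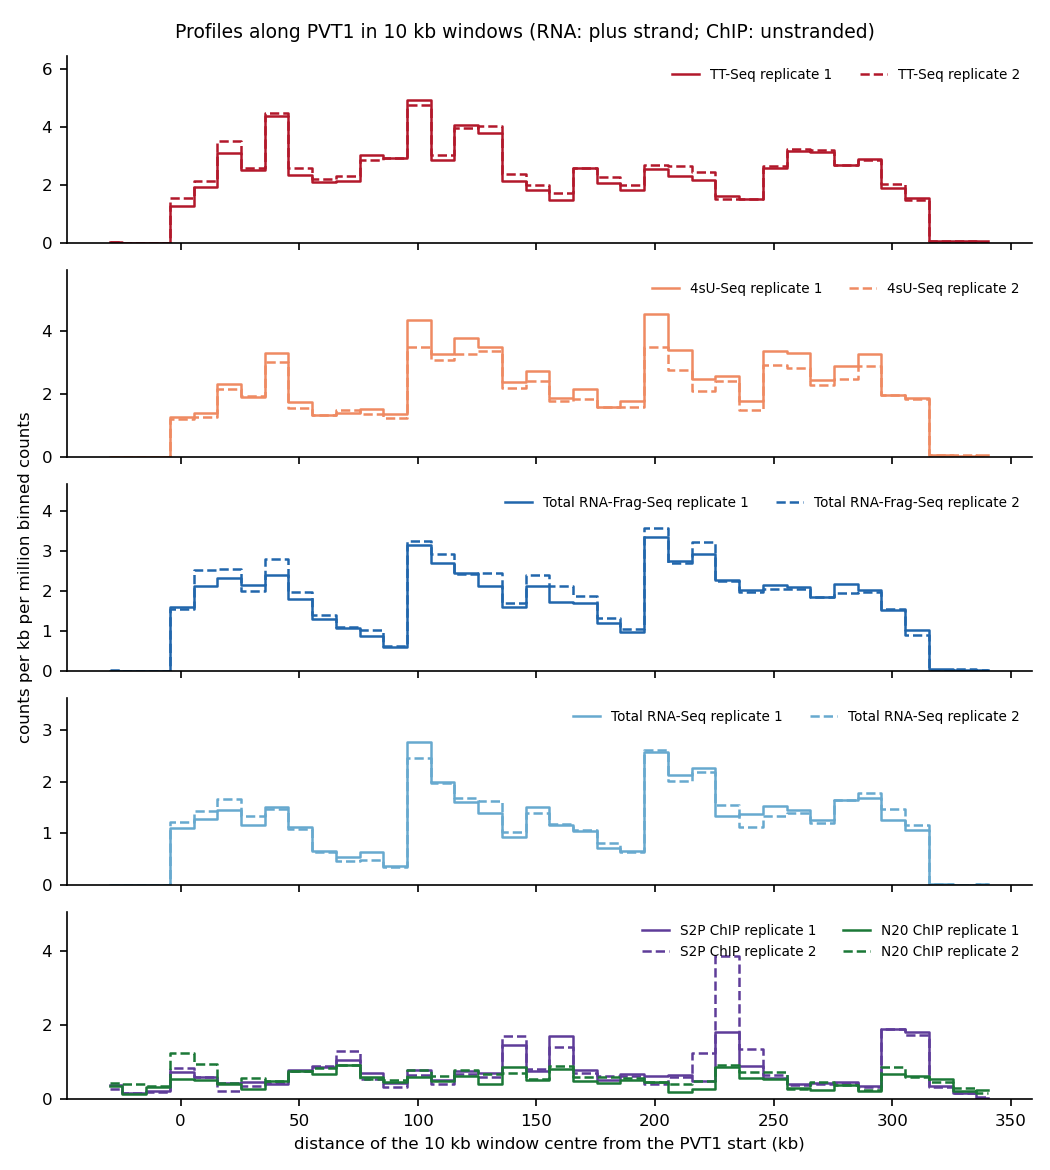
Levels along PVT1 in CPM per kb, in 10 kb windows by distance from the gene start in kb, for 4 RNA groups on the plus strand and for ChIP. Lines are replicates. Total RNA-Seq steps up near 100 and 200 kb, from 0.360 to 2.61 and from 0.645 to 2.60, while TT-Seq varies less.

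All 66 windows over the PVT1 unit were tested. In TT-Seq over Total RNA-Frag-Seq 32 rose and 18 fell, where 33.3% and 32.4% of all 215766 windows did. The highest, at 127880001 to 127885000, had a log2 difference of 2.08, and the window at 127890001 to 127895000, past the step, had -0.72. Without scaling 42 rose and 14 fell, where 89405 of all 215766 windows rose and 54196 fell. In 4sU-Seq over Total RNA-Seq 48 rose and 3 fell, against 22.7% and 23.1% of all windows. Without scaling 57 rose and none fell, against 78043 and 32036 of all windows. In Total RNA-Frag-Seq over Total RNA-Seq 46 rose and 1 fell, against 5.66% and 8.58%. Without scaling 53 rose and none fell, against 27344 and 10763 of all windows. In TT-Seq against 4sU-Seq 21 rose and 17 fell, against 25.2% and 23.9% (49.1% in all). Without scaling 27 rose and 13 fell, against 64687 and 43026 of all windows. Over the whole region the share of tested windows called for Total RNA-Frag-Seq over Total RNA-Seq was 54.8%, and it was 34.7% without Total RNA-Frag-Seq replicate 2, 22.4% without Total RNA-Seq replicate 1 and 33.7% without Total RNA-Seq replicate 2. Over all windows, leaving out scaling moved the share of calls that were higher from 50.7% to 62.3% for TT-Seq over Total RNA-Frag-Seq, from 49.6% to 70.9% for 4sU-Seq over Total RNA-Seq and from 39.7% to 71.8% for Total RNA-Frag-Seq over Total RNA-Seq.

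Among the RNA groups, TT-Seq alone had over 50% of PVT1 counts in the 5′ part in both libraries. That part held 55.7% and 55.6% of counts in TT-Seq, 47.1% and 48.2% in 4sU-Seq, 48.3% and 49.6% for Total RNA-Frag-Seq, and 45.8% and 46.3% for Total RNA-Seq. The log2 ratio of the parts was higher for TT-Seq by 0.39 ± 0.04 beside Total RNA-Frag-Seq (limma adjusted p = 2.04e-05, median over features 0.32) and by 0.47 ± 0.04 beside 4sU-Seq (limma adjusted p = 2.39e-05), where 51.5% of features were called, 34.9% higher, with a median of 0.14. With the outer 25% at each end compared in place of the parts, the difference from Total RNA-Frag-Seq was 0.08 and was not called. The difference Total RNA-Frag-Seq minus Total RNA-Seq was 0.17 ± 0.04 (limma adjusted p = 0.0333), with 13.6% of features called and 10.1% higher, and this call was lost without Total RNA-Frag-Seq replicate 2 (0.13) and without either Total RNA-Seq replicate (0.15 and 0.18). The difference 4sU-Seq minus Total RNA-Seq was 0.09 ± 0.04 (limma adjusted p = 0.101, 60.4% called), and the test between both purification effects gave 0.30 ± 0.06 (limma adjusted p = 0.0061), where 29.9% of features were called and 18.7% higher.

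On the minus strand of the region lie 6 eRNA units (transcripts of enhancers), 2 sincRNA units (short intergenic non-coding) and 1 conRNA unit (convergent), in the deposited classes. Of these 9, 7 passed the low-count filter. A unit of low total can pass through the purified libraries alone, so the counts that follow are a description. In TT-Seq over Total RNA-Frag-Seq all 7 tested rose and none fell, with a median log2 difference of 2.18, or 2.04 with a unit of no Total RNA-Frag-Seq count at its lower bound, where 43.2% of features rose. In 4sU-Seq over Total RNA-Seq 5 of 7 rose, against 40.2% of features, and of all 9 tested units of the locus 7 were called, or 4 without Total RNA-Seq replicate 2. In TT-Seq against 4sU-Seq 2 of 7 rose, against 19.8%, and without TT-Seq replicate 2 the call of 1 unit was left in the locus. In Total RNA-Frag-Seq over Total RNA-Seq none was called.

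The most abundant per kb was the eRNA unit at 127895568 to 127899800, inside PVT1 and at its first step. It held 856 and 838 counts in TT-Seq, 450 and 284 in 4sU-Seq, 163 and 83 for Total RNA-Frag-Seq, and 103 and 77 for Total RNA-Seq. The purified libraries lay above the unpurified ones in counts. Mean levels were 2.88 in TT-Seq, 1.70 in 4sU-Seq, 0.746 for Total RNA-Frag-Seq and 0.757 for Total RNA-Seq, and the TT-Seq level of 2.88 ± 0.113 (SD, n = 2) placed the unit at 1025 of 21827. The log2 difference was 1.55 ± 0.18 for TT-Seq over Total RNA-Frag-Seq (edgeR adjusted p = 2.44e-06) and 0.64 ± 0.15 for TT-Seq against 4sU-Seq (edgeR adjusted p = 0.00326). The plus strand across it, part of PVT1, had a TT-Seq level of 8.00 ± 0.290, and its bin at 127897401 to 127897600 was the highest of PVT1 in both TT-Seq libraries.

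The conRNA unit, at 127723973 to 127742176, lies antisense across MYC and its upstream flank. It held 698 and 749 counts in TT-Seq, 460 and 528 in 4sU-Seq, 195 and 167 for Total RNA-Frag-Seq, and 213 and 138 for Total RNA-Seq. It rose by log2 0.74 ± 0.14 in TT-Seq over Total RNA-Frag-Seq (edgeR adjusted p = 1.7e-04). The minus strand of the MYC span held 407 and 396 counts in TT-Seq. In the MYC blocks minus-strand counts were 0.502% and 0.611% of both strands in TT-Seq and between 0.539% and 0.999% in the other groups. In the rest of the span they were 3.26% and 2.58% in TT-Seq and between 3.14% and 4.03% in the other groups, so their share was not raised in TT-Seq. Whether these come from the antisense strand or from imperfect strand assignment of MYC reads was not tested.

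The other units were small. The sincRNA unit at 128041452 to 128051016 had 197 and 201 counts in TT-Seq, 116 and 122 in 4sU-Seq, 25 and 12 for Total RNA-Frag-Seq, and 20 and 20 for Total RNA-Seq (log2 2.18 ± 0.23 for TT-Seq over Total RNA-Frag-Seq, edgeR adjusted p = 3.23e-07). The units that follow passed the filter through the purified libraries or not at all, so their counts are given without a test. The sincRNA unit at 127793240 to 127796553, antisense to the start of PVT1, had 34 and 26 counts in TT-Seq, 20 and 20 in 4sU-Seq, 3 and 3 for Total RNA-Frag-Seq, and 4 and 2 for Total RNA-Seq. In both sincRNA units the purified libraries lay above the unpurified ones without overlap. The eRNA unit at 128034638 to 128035249 had 18 and 17 counts in TT-Seq, 6 and 8 in 4sU-Seq, 0 and 0 for Total RNA-Frag-Seq, and 1 and 1 for Total RNA-Seq, so that TT-Seq was at least 3.13-fold higher against a floor of 3 counts per library. The eRNA unit at 127910661 to 127911862 had 18 and 28 counts in TT-Seq, 7 and 6 in 4sU-Seq, 1 and 3 for Total RNA-Frag-Seq, and 2 and 1 for Total RNA-Seq. The eRNA unit at 127958437 to 127961759 had 39 and 44 counts in TT-Seq, 13 and 23 in 4sU-Seq, 3 and 2 for Total RNA-Frag-Seq, and 2 and 2 for Total RNA-Seq. Both eRNA units that were too low to test lie near and past the 3′ end of PVT1. The one at 128077908 to 128078461 had 7 and 8 counts in TT-Seq, 0 and 4 in 4sU-Seq, 0 and 2 for Total RNA-Frag-Seq, and 0 and 0 for Total RNA-Seq. The one at 128176129 to 128176956 had 6 and 11 counts in TT-Seq, 6 and 5 in 4sU-Seq, and none in any unpurified library.

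**Figure D5:**
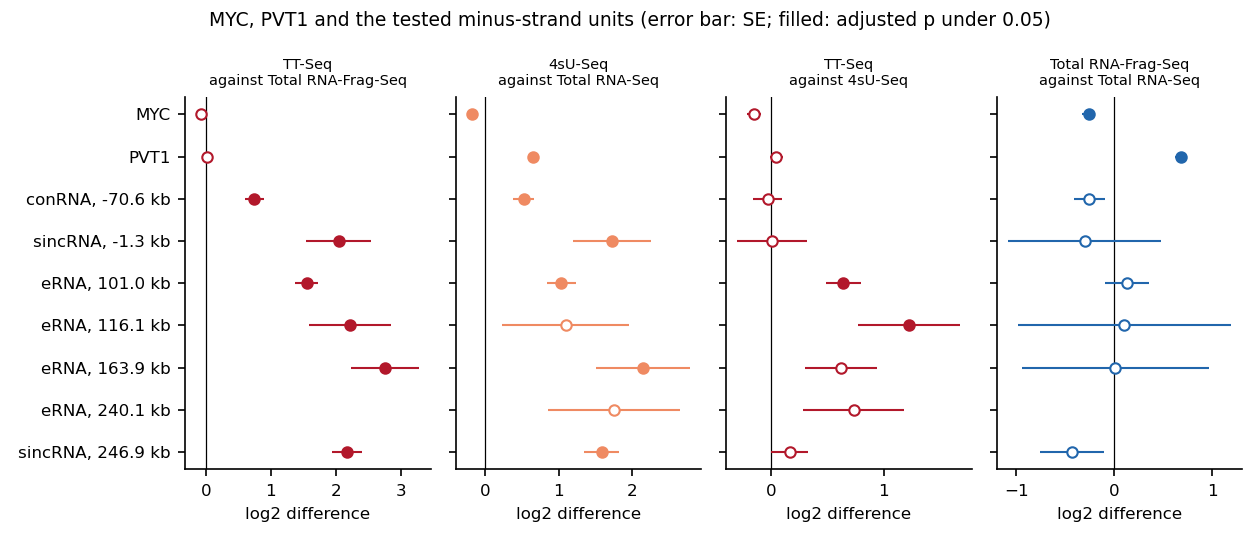
Log2 differences with SE of MYC, PVT1 and the 7 tested minus-strand units in 4 RNA comparisons, with distances of the units' lower ends from the PVT1 start in kb. Filled points had an adjusted p under 0.05, which is no support for the smallest units, since they passed the filter through the purified libraries. The unit at 240.1 kb, with no Total RNA-Frag-Seq count, is left out of comparisons with that group.

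Between and beyond both genes the region held few plus-strand counts. The 47.6 kb between the MYC unit and PVT1 held 15 and 29 plus-strand counts in TT-Seq, 13 and 14 in 4sU-Seq, 8 and 8 for Total RNA-Frag-Seq, and 10 and 6 for Total RNA-Seq. MYC and PVT1 units held between 99.6% and 99.8% of plus-strand counts of the region in every RNA library. CASC11, a long non-coding gene upstream of MYC that overlaps the conRNA unit in part, had 3 and 2 plus-strand and 130 and 139 minus-strand counts in TT-Seq. Its minus-strand levels were 0.0565 and 0.0584 in TT-Seq and 0.0493 and 0.0512 for Total RNA-Frag-Seq. They were 0.0474 and 0.0458 in 4sU-Seq and 0.0453 and 0.0277 for Total RNA-Seq. The hairpin of MIR1204, hosted by PVT1, lay in bins with levels of 3.28 ± 0.0291 in TT-Seq and 2.13 ± 0.0117 for Total RNA-Seq (SD, n = 2 each), counts that belong to the host RNA or the hairpin alike. MIR1208, past the PVT1 unit, had 0 and 0 in TT-Seq.

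In the authors' deposited table, MYC has a synthesis rate of 1.88, above 99.8% of units, and a decay rate of 0.172, above 72.0%. PVT1 has a synthesis rate of 0.00320, above 35.2% of units, and a decay rate of 0.00789, above 17.3%, in the authors' deposited table. By TT-Seq level per kb, a different measure, the PVT1 unit stood above 94.2% of units. Why these places differ was not tested. No source used here gives the unit of these rates, and only places within the table can be read. In the authors' deposited table the eRNA unit at 127895568 has a synthesis rate above 92.5% of units.

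Polymerase ChIP set the genes apart. The antibodies differ in efficiency, so their levels are not on one scale, and S2P over N20 values are relative within each library. Units took 73.0% and 79.9% of all S2P counts and 51.2% and 52.0% of all N20 counts. The MYC span had S2P levels of 2.69 and 3.76 and N20 levels of 9.84 and 9.13. Its log2 difference, S2P over N20, was -1.50 ± 0.18 (edgeR adjusted p = 2.21e-05), where 40.9% of 20131 features were called and 18.6% were lower. PVT1 had S2P levels of 0.762 and 0.828 and N20 levels of 0.517 and 0.627, a log2 difference of 0.54 ± 0.14 (edgeR adjusted p = 0.0078). The PVT1 sign turned without scaling (-0.09, edgeR adjusted p = 0.55), where the median over features was -0.70, and its call was lost without N20 replicate 1 (0.45). The conRNA unit, which shares unstranded ChIP bins with MYC, was lower by log2 -1.43 ± 0.17.

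N20 signal at MYC sat at its 5′ end. The 5′ part held 66.9% and 80.5% of S2P counts and 93.8% and 93.8% of N20 counts, and the log2 ratio of the parts, S2P minus N20, was -2.39 ± 0.35 (limma adjusted p = 0.0041), where 32.3% of 12953 features were called, 2.95% higher and 29.3% lower, with a median of -0.54. In S2P the bin at 127741801 to 127742000 was the highest in replicate 1, with 268 counts. In replicate 2 it shared the highest count, 82, with the bins at 127736001 to 127736200 and 127736201 to 127736400. The highest N20 bin, 127736201 to 127736400, was the first bin of block 1. In 9 of the 38 bins of MYC, 8 of them in the 3′ part, all 4 ChIP libraries had at most 4 counts. The mean over all bins was 4.77 and 2.23 counts in S2P and 0.816 and 1.51 in N20, so that limit is not low for N20.

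Along PVT1, S2P leaned to the 3′ end. The 5′ part held 46.4% and 40.0% of S2P counts and 54.3% and 53.9% of N20 counts, and the log2 ratio of the parts differed by -0.63 ± 0.18 (limma adjusted p = 0.0376), close to the median over features of -0.54. That call was lost without N20 replicate 1 (-0.62), without N20 replicate 2 (-0.64) and without S2P replicate 2 (-0.45). Of 66 windows of 5 kb, 32 rose in S2P and none fell, where 12% of all 427846 windows rose and 9.5% fell. Without scaling 12 of the 66 rose and 4 fell, where 19760 of all 427846 windows rose and 123849 fell. Over the whole region 38.3% of tested windows were called, and 18.6% without N20 replicate 1 and 20.5% without N20 replicate 2. The highest, at 128100001 to 128105000, spans the 3′ end of the gene (log2 2.88). The mean S2P level in 10 kb windows was highest at 128020001 to 128030000 through replicate 2, with levels of 1.80 in replicate 1 and 3.85 in replicate 2 from 1328 counts each. In replicate 1 the window at 128090001 to 128100000 was the highest, with a level of 1.89, and it had 1.89 in replicate 2 as well.

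Genes that act with MYC were measured from lists of its network. Of the MAX network (MAX, its partners and their relatives), 9 of 14 genes had a unit, and 1 rose and 5 fell in TT-Seq over Total RNA-Frag-Seq, with a median log2 difference of -0.36. MXD4, a repressive MAX partner, stood at -0.94 ± 0.07, MLXIPL, a glucose-responsive member, at -0.87 ± 0.13, and MXI1, another repressive partner, at 0.59 ± 0.06. Without scaling 3 rose and 3 fell. Of 12 measured genes (17 listed) for MYC protein turnover, 2 rose and 6 fell, with a median of -0.15, and without scaling 7 rose and 3 fell. The kinase PIM1 stood at -1.01 ± 0.07, FBXW7, the ubiquitin ligase subunit that recognises phosphorylated MYC, at -0.71 ± 0.05, and the kinase GSK3B at 0.54 ± 0.05.

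Of 12 measured genes (18 listed) for proteins that bind MYC mRNA, 1 rose and 11 fell, with a median of -0.68, and without scaling the counts were the same and the median was -0.34. PTBP1, a splicing regulator, stood at -2.11 ± 0.08, HNRNPU at -1.05 ± 0.05 and ZFP36L1, a decay factor of AU-rich mRNAs, at -1.01 ± 0.06. Of 36 measured canonical MYC targets (49 listed), 4 rose and 29 fell, with a median of -0.86, and without scaling 7 rose and 25 fell. SRM, spermidine synthase, stood at -2.21 ± 0.09, APEX1, a DNA repair endonuclease, at -1.88 ± 0.07 and BOP1, a ribosome biogenesis factor, at -1.82 ± 0.09. Of 13 measured regulators (16 listed) bound at erythroid MYC enhancers, 1 rose and 9 fell, with a median of -0.38, and without scaling 6 rose and 6 fell. LDB1, a cofactor of GATA1 and TAL1, stood at -1.39 ± 0.09, STAT5A at -1.37 ± 0.06 and TAL1 at -0.99 ± 0.06. Over all features the median was 0.09, and 43.2% rose and 37.8% fell. Without scaling 11173 of all 19321 features rose and 4848 fell, with a median of 0.44. Of the markers of K562 cells, 4 of 12 had a unit, of which 1 rose and 3 fell (1 and 2 without scaling), and of the markers of other cell types 6 of 16 had one, all lower in TT-Seq. Their part in these results was not tested.

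In S2P against N20 ChIP, 22 of the 36 canonical targets rose and 1 fell, with a median of 0.84 beside -0.07 over all features, where 22.3% rose. SRM stood highest at 2.20 ± 0.18. Of the 13 enhancer-bound regulators 10 rose, led by LYL1, a haematopoietic transcription factor, at 2.59 ± 0.23, and of the 9 MAX network genes 6 rose, led by MLXIP at 1.61 ± 0.15, and 1 fell, the MYC unit (-1.44 ± 0.18). Of the 12 mRNA-binding protein genes 9 rose, PTBP1 by 2.04 ± 0.15, and of the 12 turnover genes 1 fell, GSK3B, by a log2 difference of -0.72 ± 0.17. The 2 that rose were TRRAP, a scaffold of acetyltransferase complexes, by 0.87 ± 0.14, and PIM1, by 0.53 ± 0.14, whose sign turned without scaling (-0.11). Without scaling 11 targets rose and 7 fell, 5 regulators rose and 2 fell, and 4 mRNA-binding protein genes rose and 2 fell. In the same fit 3 MAX network genes rose and 2 fell, and no turnover gene rose and 8 fell. Over all 20131 features of that fit 2004 rose and 10222 fell, with a median of -0.70. The medians of the MAX network (-0.09) and of the mRNA-binding proteins (-0.06) lay below 0 but above that median.

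Among named mRNA units of similar abundance, the genes whose centred log2 values over the 8 RNA libraries lay nearest to MYC were SREK1, EIF3A, ZNF595, PRP4K and HK1, at Euclidean distances between 0.342 and 0.427 beside a median of 0.853 over 653 candidates. Nearest to PVT1 were FARS2, PRKCE, DENND1A, MARCHF3 and CCNY, at distances between 0.107 and 0.169 beside a median of 0.700 over 268 candidates. FARS2, the nearest, had log2 differences of 0.04 for TT-Seq over Total RNA-Frag-Seq, 0.58 for 4sU-Seq over Total RNA-Seq and 0.68 for Total RNA-Frag-Seq over Total RNA-Seq.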

How the data were processed

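The submitters' processing notes name the build hg38 and the tools Bowtie2 (2.1.0), STAR (2.3.0) and SAMtools, without their roles. The authors deposited counts per 200 bp bin, by strand for RNA and unstranded for ChIP, and a unit annotation with a synthesis and a decay score, whose unit and computation are not given in the sources used here. The members, gene lists and tests were chosen with earlier results of these data known. Bins were summed over genes, units and windows, and RefSeq (GRCh38.p14) symbols were given to units by overlap. Features and windows were fitted with edgeR 4.0.16 (TMM, filterByExpr, robust quasi-likelihood) and ratios of the 5′ over the 3′ part with limma 3.58.1 (pseudocount 0.5, at least 50 counts per library, features of at least 4 kb), all 8 RNA or all 4 ChIP libraries in a fit. The feature and the ratio fit were checked on simulated data. For the ratios the simulated data held counting noise alone, so that check does not cover spread between replicates. DESeq2 1.42.0 and the other alternatives are in the closing section. Genes were named by rule: MYC, PVT1, all units of the region, up to 3 called members of each list with the largest change, and the 5 genes nearest in profile. Bins of 200 bp as a test scale were added after seeing the data. The exon and intron count tables were not used, since their rows could not be tied to units. Chromosome 8 sequences are not reported here.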

Additional observations from a re-analysis of the deposited data

Results flagged for a closer look

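The effect of purification on PVT1 differed between sheared and unsheared RNA. The test of that difference gave a log2 value of -0.64 for the PVT1 gene span (-0.640, edgeR adjusted p = 1.78e-05) and -0.638 for the deposited PVT1 unit, TT-Seq over Total RNA-Frag-Seq set against 4sU-Seq over Total RNA-Seq. Over all features 34.6% were called, 25.8% lower. All other features of the locus tested, MYC included, did not pass this test.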

How the results depend on the processing

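Of 638 values recomputed under alternatives, 532 were rated as unchanged. For log2 differences this means the same direction and side of the threshold. For counts and shares of calls it means a limited ratio to the main value, and for levels a shift smaller than the SD. The counts divided by 2 and the 200 bp bins were chosen after seeing the data. All log2 values here are for the comparisons as named, and the cause of each change was not tested beyond what the setting itself alters.

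Without scaling beyond library size, MYC stood at 0.26 and PVT1 at 0.35 for TT-Seq over Total RNA-Frag-Seq, MYC at -0.040 for 4sU-Seq over Total RNA-Seq and at 0.30 for the difference of purification effects, and PVT1 at -0.092 for S2P over N20 ChIP. PVT1 for TT-Seq over Total RNA-Frag-Seq lay on either side of 0, at -0.0033 with DESeq2, at -0.0033 with RLE scaling and at -0.016 with no filter. MYC for TT-Seq over 4sU-Seq passed at -0.17 with no filter. For the 5′ over 3′ ratio, comparing the outer 25% at each end gave 0.076 for PVT1 in TT-Seq over Total RNA-Frag-Seq, -0.16 for PVT1 in 4sU-Seq over Total RNA-Seq and -1.03 for MYC in TT-Seq over 4sU-Seq, and a pseudocount of 5 gave -0.53 for the last.

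Units of the locus called for TT-Seq over 4sU-Seq numbered 1 with DESeq2 and 1 with bins wholly inside, in place of 2. For the difference of purification effects they numbered 2 with RLE scaling and 2 without scaling, in place of 1. The percentage of tested windows called moved from 69.9 to 36.9 with 200 bp bins and 40.8 with no filter except 10 counts for TT-Seq over Total RNA-Frag-Seq, from 67.7 to 23.7 and 39.1 for 4sU-Seq over Total RNA-Seq, and from 48.4 to 22.7 and 27.2 for TT-Seq over 4sU-Seq. For Total RNA-Frag-Seq over Total RNA-Seq it moved from 54.8 to 26.2 with 2 kb windows, 0.478 with 200 bp bins and 32.0 with no filter, and for ChIP from 38.3 to 58.3 with 10 kb and 18.8 with 2 kb windows. Smaller windows hold fewer counts.

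With library totals over units only, mean MYC levels were 62.5 (TT-Seq), 66.9 (4sU-Seq), 52.0 (Total RNA-Frag-Seq), 68.8 (Total RNA-Seq), 4.20 (S2P) and 18.4 (N20), and PVT1 levels 3.02, 2.81, 2.37, 1.63, 1.04 and 1.11 in that order. Over the deposited units MYC gave 33.3, 34.3, 26.9, 35.3, 2.17 and 6.11 in that order, and PVT1 2.59 (TT-Seq), 1.98 (Total RNA-Frag-Seq) and 1.35 (Total RNA-Seq). Bins wholly inside gave MYC levels of 58.5 (TT-Seq), 47.8 (Total RNA-Frag-Seq), 62.6 (Total RNA-Seq) and 10.0 (N20).

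Leaving out 1 library of the groups compared at a time gave these ranges. For TT-Seq over Total RNA-Frag-Seq, PVT1 ran from -0.038 to 0.060. For 4sU-Seq over Total RNA-Seq, MYC ran from -0.31 to -0.076. For TT-Seq over 4sU-Seq, MYC ran from -0.27 to -0.033 and PVT1 from -0.051 to 0.14. For Total RNA-Frag-Seq over Total RNA-Seq, MYC ran from -0.37 to -0.20. The difference of purification effects ran from -0.012 to 0.26 for MYC, and S2P over N20 from 0.45 to 0.64 for PVT1. The 5′ over 3′ ratio ran from -0.92 to -0.47 for MYC in TT-Seq over Total RNA-Frag-Seq, from -0.76 to -0.31 for MYC in TT-Seq over 4sU-Seq, from -0.39 to 0.038 for MYC and 0.13 to 0.20 for PVT1 in Total RNA-Frag-Seq over Total RNA-Seq, and from -0.82 to -0.45 for PVT1 in ChIP. Features called ran from 2385 to 4236 for Total RNA-Frag-Seq over Total RNA-Seq and from 4822 to 11603 for ChIP. Units of the locus called ran from 4 to 6 for 4sU-Seq over Total RNA-Seq, from 1 to 3 for TT-Seq over 4sU-Seq, from 1 to 2 for Total RNA-Frag-Seq over Total RNA-Seq, from 1 to 2 for the difference of effects and from 2 to 5 for ChIP. Windows called ran from 22.4 to 38.8% for Total RNA-Frag-Seq over Total RNA-Seq and from 18.6 to 40.3% for ChIP.

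Deviations of same-numbered libraries were weakly correlated (r between 0.0036 and 0.099 for RNA and -0.078 for ChIP). These values cannot tell whether such libraries came from the same cells. The estimated spread (dispersion) over RNA features was 0.00253 with a replicate block and 0.00299 without it. With the replicate block 54 of 56 values were unchanged in call, and MYC passed for the 5′ over 3′ ratio at -0.34 in 4sU-Seq over Total RNA-Seq and at -0.53 in TT-Seq over 4sU-Seq. Of 182 alternative values for minus-strand units, 168 kept their call, 14 lost it and 0 reversed. This is a description and no support for the small units, which rest on few counts and passed the filter through the purified libraries. Depth limits the smallest units, and 2 libraries a group limit every test.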
